A study of Sus scrofa with 12 samples.

Results

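The genes of fatty acid delivery and uptake were chosen by name: lipoprotein lipase and its partners at the capillary wall (LPL, GPIHBP1 and LMF1), the lipoprotein receptor VLDLR, the proteins of uptake at the cell surface (CD36, SLC27A1, SLC27A4 and CAV1), and the proteins that bind and activate fatty acids inside the fibre (FABP3 and ACSL1). Of these 10 symbols, 9 were paired with a gene identifier of the count tables, which list 25880 genes. No identifier was paired with CD36, and its expression was not analysed here. The data were raw read counts per gene from RNA-seq of longissimus dorsi (LD), a glycolytic back muscle, of 12 Iberian pigs, with 1 library per pig. All were castrated males of a closed commercial population, fed a restricted ration at first and then fattened outdoors on acorns and grass. The 6 pigs of the High MB group had the highest and the 6 pigs of the Low MB group the lowest estimated breeding values for muscle myoglobin, the red oxygen-binding protein of meat. The groups were selected by breeding value without any treatment, so other inherited traits can differ between them as well. Muscle myoglobin was 2.376 to 2.559 mg/g in High MB pigs and 1.226 to 1.58 mg/g in Low MB pigs.

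Fatty acids reach a muscle fibre from the blood as triglycerides in lipoproteins or bound to albumin. Lipoprotein lipase, made by fibres and adipocytes and folded with the help of LMF1, is carried across the capillary endothelium by GPIHBP1 and held on its luminal side, where it releases fatty acids from the lipoprotein core. VLDLR binds triglyceride-rich lipoproteins, CAV1 builds the caveolae of endothelial cells and adipocytes, SLC27A1 and SLC27A4 are transport proteins with acyl-CoA synthetase activity, FABP3 carries fatty acids through the cytosol of muscle, and ACSL1 joins them to coenzyme A before oxidation or storage.

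Summed over genes, the counts per library were between 38914271 and 91318334. The libraries formed 2 depth classes, 5 deep ones of at least 59227608 counts (pigs 4 and 6 of High MB; pigs 1, 5 and 6 of Low MB) and 7 standard ones of at most 40001432. When the pigs were clustered on all genes tested, pig 2 of the High MB group and pig 4 of the Low MB group stood apart from the other 10. Fibre markers were abundant in all libraries, with summed levels of at least 44024 CPM (the counts of a gene scaled to the size of its library), the lowest in High MB pig 2. Markers of other cells also moved with the groups. The summed level of 8 macrophage markers was 63.6 to 133 CPM in High MB pigs and 30.2 to 72.9 CPM in Low MB pigs (exact permutation test, p = 0.0216, 7 of 8 higher at an unadjusted p under 0.05). The 6 slow fibre markers with an identifier summed to 6433 to 12555 CPM in High MB pigs and 4842 to 8404 CPM in Low MB pigs (exact permutation test, p = 0.0281, 6 of 6 with a log2 fold change above 0 and 5 of them at an unadjusted p under 0.05). The part of these markers in the results below was not tested. In whole muscle, fewer cells of a type and less RNA per cell cannot be told apart.

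The sequences before the genes of GPIHBP1 and VLDLR are given for reference. They are the members with an unadjusted p-value under 0.05 between the groups from edgeR, and neither was called. Each is the 250 bases before the start of the RefSeq gene in Sscrofa11.1, written 5′ to 3′ on the strand of the gene, from chr4:1256922-1257171 (minus strand) for GPIHBP1 and chr1:219210333-219210582 (minus strand) for VLDLR. Capitals mark matches, on either strand, to the GC box GGGCGG, the CCAAT box CCAAT and the TATA box TATAAA.
GPIHBP1: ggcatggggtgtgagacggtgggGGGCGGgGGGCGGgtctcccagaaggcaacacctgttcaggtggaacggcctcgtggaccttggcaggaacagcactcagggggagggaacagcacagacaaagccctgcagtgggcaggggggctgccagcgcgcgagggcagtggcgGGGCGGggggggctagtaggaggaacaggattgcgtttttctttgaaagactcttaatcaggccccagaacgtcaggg
VLDLR: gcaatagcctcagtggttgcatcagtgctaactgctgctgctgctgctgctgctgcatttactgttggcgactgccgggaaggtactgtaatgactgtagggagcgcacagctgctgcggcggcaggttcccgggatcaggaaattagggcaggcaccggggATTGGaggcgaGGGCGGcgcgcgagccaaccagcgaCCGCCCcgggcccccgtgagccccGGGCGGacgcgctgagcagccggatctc
GPIHBP1 had 3 matches to the GC box and none to the other motifs, and VLDLR had 3 GC box matches and 1 CCAAT match. Of the 19559 promoters of protein-coding genes of the same length, 45.9% held the GC box, 31.9% the CCAAT box and 9.77% the TATA box. An exact match to the direct repeat that PPAR and RXR bind, 2 copies of AGGTCA with 1 base between them, was found before none of the members. Only 0.0256% of all promoters held such a match, so its absence cannot tell the members from other genes. Inexact copies were not searched.

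The question of the study was which genes differ in muscle between pigs of high and low genetic merit for myoglobin. All 9 members passed the filter on low counts, and the fit and the quasi-likelihood test of edgeR covered all 13373 genes that passed it. A call required an adjusted p-value (Benjamini-Hochberg, over all genes) under 0.10 and an absolute log2 fold change (log2 FC, High MB over Low MB) over 0.58, the limits of the study. edgeR called 0 of the 9 members and 0 of all genes (0.0%), with adjusted p-values of the members between 0.563 and 0.951. At an unadjusted p-value under 0.05 it gave 2 of the 9 members, GPIHBP1 higher and VLDLR lower in the High MB group, against 8.46% of all genes (5.33% higher and 3.13% lower). DESeq2 with its defaults also called 0 of the 9 members, and called 29 of the 14417 genes to which it gave an adjusted p-value (0.201%; 0.232% when run on genes with at least 10 counts in all, again with 0 members). The log2 FC of the members had a median of 0.15 and lay between -0.23 and 0.65, with 6 of the 9 above 0, beside a median of -0.016 and 46.9% above 0 over all genes tested. An absolute log2 FC over 0.58 was seen in 1 member, GPIHBP1, and in 8.29% of all genes. The pigs of the groups were fully apart in 0 of the 9 members and in 0.426% of all genes (0.232% higher in the High MB group).

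**Figure D1:**
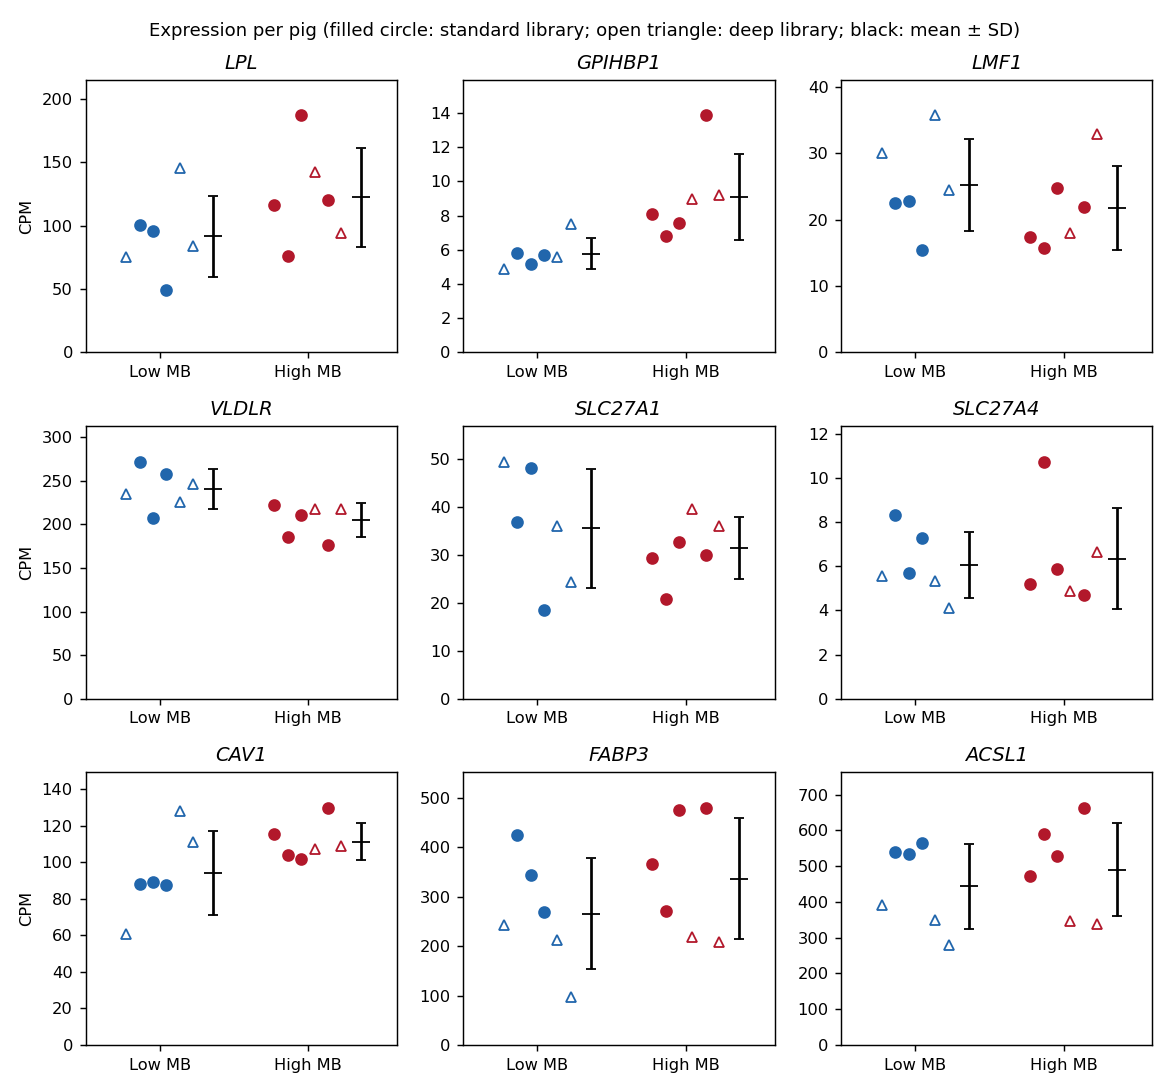
Expression of the 9 genes in CPM (vertical axes from 0) in each pig of the Low MB (blue) and High MB (red) groups, with filled circles for standard libraries, open triangles for deep libraries, and the mean ± SD of each group (n = 6) in black. GPIHBP1 was higher in 5 of the 6 High MB pigs than in any Low MB pig, and the triangles of ACSL1 and FABP3 lie under all circles.

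GPIHBP1 (ENSSSCG00000034689, chr4:1253401-1256921, minus strand), the endothelial protein that anchors lipoprotein lipase, showed the largest difference among the members. Its level was 6.81 CPM in the lowest High MB pig, 8.55 CPM at the median and 13.9 CPM in the highest, High MB pig 5. In the Low MB group it was 4.89 CPM in the lowest pig, 5.63 CPM at the median and 7.52 CPM in the highest, Low MB pig 6. The groups overlapped only through Low MB pig 6, which was above High MB pig 2, so that 5 of the 6 pigs with high breeding values exceeded the whole Low MB group. The means were 9.10 ± 2.50 CPM (SD, n = 6) and 5.78 ± 0.920 CPM (SD, n = 6), from between 202 and 857 counts per library. The log2 FC was 0.65 (standard error 0.17), a 1.57-fold higher level in the High MB group, with an unadjusted p-value of 0.00204 and an adjusted p-value of 0.563 from edgeR. DESeq2 gave an adjusted p-value of 0.12, and the exact permutation test of log2 CPM over all splits of the 12 pigs gave p = 0.00433. The log2 FC was 0.65 with deep and 0.72 with standard libraries alone. Without High MB pig 5 it was 0.50, under the limit of 0.58. GPIHBP1 is among the genes that the study itself called on these pigs, so its choice is not independent of these counts. The study's list also took in genes called only on transcript counts, which were not used here. On the gene counts DESeq2 did not call GPIHBP1 here.

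Markers of the endothelium, the cells that make GPIHBP1, had higher values in the High MB group within overlapping ranges. All 10 endothelial markers with an identifier had a log2 FC above 0, and 2 of them, TIE1 and ERG, had an unadjusted p-value under 0.05. None of the 10 was at 0 in any library, and no identifier was paired with VWF or CLDN5. Their summed level was 221 to 290 CPM in High MB pigs and 165 to 287 CPM in Low MB pigs, a log2 difference of 0.29 (exact permutation test, p = 0.0649). Set against this sum, GPIHBP1 amounted to between 2.69% and 4.79% of it in the High MB group (median 3.48%) and to between 1.94% and 3.39% in the Low MB group (median 2.95%). The log2 difference of this ratio was 0.33 (exact permutation test, p = 0.0714), and the ratio was chosen after the values had been seen. The part of endothelial cells in the level of GPIHBP1 was not tested. After the group means were subtracted, GPIHBP1 and the endothelial sum had a Pearson r of 0.42 (permutation p = 0.176, adjusted p = 0.376) and a Spearman rho of 0.48 (permutation p = 0.123, adjusted p = 0.426) over the 12 pigs, with r = 0.19 without the 2 pigs farthest from the median. Within the classes r was 0.41 among the 5 deep and 0.50 among the 7 standard libraries.

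LPL (ENSSSCG00000040631, chr14:4104761-4134964, plus strand), the enzyme that GPIHBP1 holds, had a log2 FC of 0.42 (standard error 0.24), with an adjusted p-value of 0.644 from edgeR and p = 0.158 from the exact permutation test. It was 75.8 CPM in the lowest High MB pig, 118 CPM at the median and 187 CPM in the highest, and 49.4 CPM, 89.7 CPM and 145 CPM in the Low MB group. Only 1 High MB pig, pig 3, was above all Low MB pigs, and 2 Low MB pigs were below all High MB pigs, so the difference was within the spread between pigs. The log2 FC of LPL was 0.26 without High MB pig 3 and 0.60 without Low MB pig 5. LMF1 (ENSSSCG00000008009, chr3:40841242-40929163, plus strand), the chaperone of the lipase in the endoplasmic reticulum, averaged 21.8 ± 6.35 CPM in High MB pigs and 25.2 ± 6.95 CPM in Low MB pigs (SD, n = 6 each), a log2 FC of -0.21 (standard error 0.21) with p = 0.392 from the exact permutation test. With each pig left out in turn, the log2 FC of LMF1 ranged from -0.37 (without High MB pig 6) to -0.085 (without Low MB pig 5). It was -0.20 with deep and -0.017 with standard libraries alone, and -0.12 with the depth class as a covariate. LMF1 overlaps the locus LOC106509720 on the other strand, and the strand setting of the counting is not given in the sources used here. The 3 members of capillary lipolysis had no common direction.

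VLDLR (ENSSSCG00000005229, chr1:219178501-219210332, minus strand), which captures triglyceride-rich lipoproteins, was the only member lower in the High MB group at an unadjusted p-value under 0.05. Its level was 176 CPM in the lowest High MB pig, 214 CPM at the median and 222 CPM in the highest. In the Low MB group it was 207 CPM, 241 CPM and 272 CPM. Of the 6 Low MB pigs, 5 were above all High MB pigs, and Low MB pig 3 lay among the High MB pigs. The pigs differed little within a group, with coefficients of variation of 9.39% and 9.70%, the smallest in the Low MB group for any member. The log2 FC of VLDLR was -0.23 (standard error 0.10), an unadjusted p-value of 0.0399 and an adjusted p-value of 0.577 from edgeR, and the exact permutation test gave p = 0.0195. It was -0.076 with deep and -0.30 with standard libraries alone, and -0.16 without the pair of pigs that stood apart on all genes.

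The members of membrane uptake that could be measured did not differ beyond the spread between pigs. CAV1 (ENSSSCG00000016634, chr18:29648120-29682451, minus strand) averaged 111 ± 10.2 CPM in High MB pigs and 94.2 ± 23.1 CPM in Low MB pigs (SD, n = 6 each), with a log2 FC of 0.24 (standard error 0.15) and p = 0.113 from the exact permutation test. In the High MB group CAV1 was between 102 and 130 CPM and in the Low MB group between 60.8 and 128 CPM, with 4 of the 6 Low MB pigs below all High MB pigs. The log2 FC of CAV1 was 0.14 without Low MB pig 1 and 0.35 without Low MB pig 5, the lowest and highest with a pig left out. SLC27A1 (ENSSSCG00000013879, chr2:60203374-60235689, minus strand) was 20.9 to 39.6 CPM in High MB pigs and 18.5 to 49.4 CPM in Low MB pigs. Its log2 FC was -0.18 (standard error 0.22), and it was 0.087 with deep and -0.28 with standard libraries alone. It ranged from -0.29 (without Low MB pig 4) to -0.055 (without Low MB pig 3) with each pig left out, and was -0.058 without High MB pig 2 and -0.060 without Low MB pig 1. SLC27A4 (ENSSSCG00000005648, chr1:268773792-268788208, plus strand), counted between 192 and 620 times per library, had a log2 FC of 0.072 (standard error 0.22), which turned to -0.12 without High MB pig 2, the pig with the highest SLC27A4 level, 10.8 CPM.

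FABP3 and ACSL1, the members that act inside the fibre, did not differ between the groups beyond the spread between pigs, while their levels lay apart in the depth classes of the libraries. FABP3 (ENSSSCG00000036883, chr6:87943003-87950708, minus strand) averaged 337 ± 123 CPM in High MB pigs and 265 ± 112 CPM in Low MB pigs (SD, n = 6 each), a log2 FC of 0.34 (standard error 0.31) with p = 0.323 from the exact permutation test. Leaving out each pig gave a log2 FC of FABP3 from 0.17 (without Low MB pig 6) to 0.54 (without Low MB pig 2), with 0.22 without High MB pig 3 and also without High MB pig 5. ACSL1 (ENSSSCG00000015784, chr15:45866858-45936327, minus strand) averaged 490 ± 131 and 443 ± 119 CPM in High and Low MB pigs (SD, n = 6 each), a log2 FC of 0.15 (standard error 0.21) with p = 0.53 from the same exact test. The log2 FC of ACSL1 was between 0.040 (without High MB pig 5) and 0.24 (without Low MB pig 4) with a pig left out, and 0.042 without Low MB pig 6. In the 5 deep libraries ACSL1 was between 279 and 390 CPM, below all 7 standard libraries, which were between 474 and 663 CPM. FABP3 likewise was at 97.0 to 243 CPM in deep and 268 to 480 CPM in standard libraries. Of all genes tested, 0.651% were lower in every deep than in every standard library, against 2 of the 9 members. With the group kept in the fit, the log2 difference of deep from standard libraries was -0.70 (standard error 0.12) for ACSL1 and -0.91 (standard error 0.22) for FABP3, with adjusted p-values of 0.137 and 0.155 from edgeR. No gene was called for the depth class (0.0%), and the absolute log2 differences of the other 7 members were at most 0.47 (LMF1, adjusted p = 0.297 from edgeR). This comparison was chosen after the values had been seen, and the depth class is the library total, so other properties shared by the pigs of a class cannot be told apart from it. With the depth class as a covariate, the log2 FC between the groups was 0.21 for FABP3 and 0.032 for ACSL1.

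**Figure D2:**
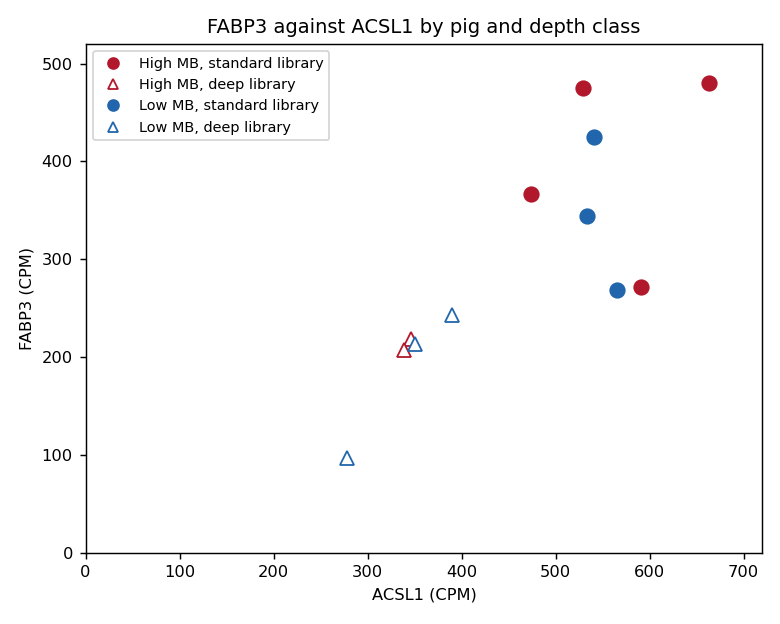
FABP3 against ACSL1, both in CPM on linear axes from 0, with 1 point per pig, red for the High MB and blue for the Low MB group, filled circles for the 7 standard and open triangles for the 5 deep libraries. The triangles, at ACSL1 levels of at most 390 CPM and FABP3 levels of at most 243 CPM, are apart from the circles, while the colours mix.

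Over all 12 pigs, after the group means were subtracted, FABP3 with ACSL1 was the only 1 of 36 pairs of members with an adjusted permutation p under 0.10 (Pearson 0.0133, Spearman 0.0623). Since the depth classes were apart for both genes, these values include the separation of the classes, and r is given within each class. In the 5 deep libraries r was 0.95, given without a p-value because correlations were tested only over at least 6 pigs. In the 7 standard libraries the pair had a Pearson r of 0.14 (exact permutation p = 0.747) and a Spearman rho of 0.32 (exact permutation p = 0.498), and r = -0.29 without the 2 pigs farthest from the median. Of the other 35 pairs of members, 0 had a Pearson correlation over the 12 pigs with an unadjusted permutation p under 0.05, and the lowest was 0.0503 for LMF1 with SLC27A1 (r = 0.58, adjusted p = 0.48, and rho = 0.53 with permutation p = 0.0796 and adjusted p = 0.716). For this pair r was 0.35 without the 2 farthest pigs, 0.14 among deep and 0.77 among standard libraries. By Spearman correlation 1 of the 35, GPIHBP1 with CAV1, had an unadjusted p under 0.05 (rho = 0.64, permutation p = 0.0298, adjusted p = 0.537). Its Pearson r was 0.53 (permutation p = 0.088, adjusted p = 0.48), with 0.37 without the 2 farthest pigs, 0.59 among deep and 0.87 among standard libraries. Among 54 relations of the members with the summed markers of 6 cell and fibre types, CAV1 with the endothelial markers had the lowest p. Its Pearson r was 0.82 (permutation p = 0.00208, adjusted p = 0.112) and its Spearman rho 0.74 (permutation p = 0.00804, adjusted p = 0.272), with r = 0.57 without the 2 farthest pigs, 0.94 among deep and 0.50 among standard libraries. The next were negative. SLC27A1 with the macrophage markers had r = -0.74 (permutation p = 0.00603, adjusted p = 0.134) and rho = -0.60 (permutation p = 0.0433, adjusted p = 0.333), with -0.55 without the 2 farthest pigs, -0.74 among deep and -0.83 among standard libraries. SLC27A4 with the fibre markers had r = -0.73 (permutation p = 0.00747, adjusted p = 0.134) and rho = -0.53 (permutation p = 0.0801, adjusted p = 0.36). That relation rested on the 2 farthest pigs, with r = -0.20 without them, 0.18 among deep and -0.83 among standard libraries. LPL with the slow fibre markers had r = 0.70 (permutation p = 0.0116, adjusted p = 0.152) and rho = 0.64 (permutation p = 0.0302, adjusted p = 0.272), with 0.65 without the 2 farthest pigs, 0.71 among deep and 0.69 among standard libraries. None of the 54 passed an adjusted p-value of 0.10. Within each group, none of the 18 relations of a member with myoglobin content had an exact permutation p under 0.05 by either coefficient. The lowest for Pearson was 0.143 for GPIHBP1 in the Low MB group (r = -0.65, adjusted p = 0.733, and rho = -0.66 with exact permutation p = 0.175, n = 6). The lowest for Spearman was 0.103 for SLC27A4 in the High MB group (rho = -0.77, adjusted p = 0.903, and r = -0.45 with exact permutation p = 0.368, n = 6).

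**Figure D3:**
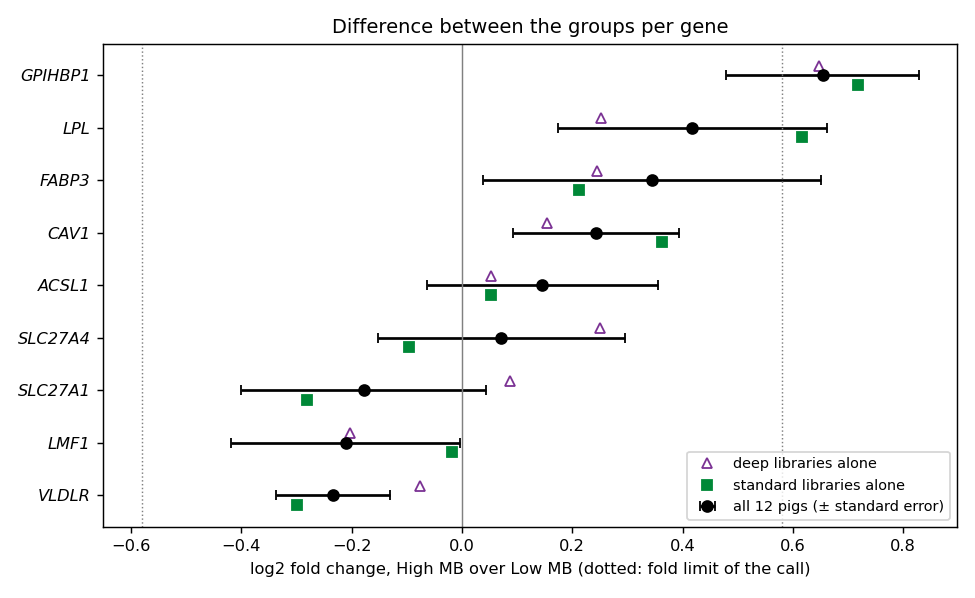
log2 fold change of the 9 genes (horizontal axis, High MB over Low MB, positive when higher in the High MB group) from edgeR, in black for all 12 pigs with the standard error, as open triangles for the deep and green squares for the standard libraries alone. GPIHBP1 is the only gene past a dotted line at 0.58 in all pigs, with 0.65 for deep and 0.72 for standard libraries, and SLC27A1 and SLC27A4 lie on opposite sides of 0 in the classes.

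Per length of the union of RefSeq exons, the members spanned a wide range of levels in this muscle. FABP3 had the highest median over the 12 pigs, 604 CPM per kb, and was above ACSL1 (102 CPM per kb) in all 12. Below ACSL1 followed VLDLR (56.8 CPM per kb), CAV1 (38.0 CPM per kb) and LPL (32.7 CPM per kb). ACSL1 was above VLDLR, and VLDLR above CAV1, in 11 of the 12 pigs. CAV1 was above LPL in 7 of the 12 pigs, and their ranges overlapped. LMF1 (12.1 CPM per kb) was under LPL in all 12 pigs. SLC27A1 (6.52 CPM per kb) and GPIHBP1 (6.46 CPM per kb) had overlapping ranges, and their order differed between pigs and was not tested. GPIHBP1 was above SLC27A1 in all 6 High MB pigs and in 2 Low MB pigs, and SLC27A1 was higher in the other 4 Low MB pigs. SLC27A4 (0.985 CPM per kb) was the lowest. The spread between pigs was widest for FABP3, 4.95-fold from the lowest to the highest pig, and narrowest for VLDLR, 1.55-fold. The lengths come from RefSeq, while the counting annotation is known only by its Ensembl identifiers.

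The genes most like GPIHBP1, VLDLR and LPL in their variation among pigs of a group were named by the Pearson correlation of log2 CPM over the 12 pigs after the group means were subtracted, out of 13373 genes, and their closeness was picked as the highest of many. For GPIHBP1 these were ENSSSCG00000004687 (r = 0.92, rho = 0.84), HIGD1B (r = 0.90, rho = 0.78) and XG (r = 0.87, rho = 0.77). Without the 2 pigs farthest from the median r was 0.71, 0.70 and 0.67, so part of these values rests on those pigs. For LPL the closest was CLCN6 (r = 0.96, rho = 0.94, and 0.94 without the 2 farthest pigs), a chloride transport gene with a log2 FC of 0.0051 between the groups. PSKH1 (r = 0.92, rho = 0.85) and ENSSSCG00000040228 (r = 0.89, rho = 0.78) followed. For VLDLR they were YDJC (r = 0.89, rho = 0.82), ENSSSCG00000017577 (r = 0.87, rho = 0.79) and ENSSSCG00000040670 (r = 0.86, rho = 0.81).

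The rest of the pathway was described with 79 further symbols in 7 lists, of which 71 were paired with an identifier of the count tables and 57 were tested. Of these 57 genes, 6 were higher and 1 was lower in the High MB group at an unadjusted p-value under 0.05, beside 5.33% and 3.13% of all genes. edgeR called 0 of the 57, and DESeq2 called 0. The median log2 FC was 0.11 over the 57 and -0.016 over all genes tested.

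Among 10 genes that control lipoprotein lipase, APOE and LIPC were higher at an unadjusted p-value under 0.05, and the list's median log2 FC was 0.33. APOE, the apolipoprotein that lipoprotein receptors recognise, averaged 39.6 ± 16.4 CPM in High MB pigs and 20.1 ± 16.1 CPM in Low MB pigs (SD, n = 6 each), a log2 FC of 0.98 (standard error 0.44, adjusted p = 0.578 from edgeR). The summed macrophage markers, given above, also differed between the groups, and their part in the level of APOE was not tested. LIPC, the hepatic lipase gene, was counted only between 11 and 91 times per library. HSPG2, which encodes the basement membrane proteoglycan perlecan, had 199 and 168 CPM in the High and Low MB groups, with a log2 FC of 0.25 (standard error 0.13). SEL1L and FURIN, which act on the folding of the lipase and the cleavage of its inhibitors, had a log2 FC of 0.065 and 0.022. Among other lipoprotein receptors, SCARB1 and SORL1 had a log2 FC of 0.38 and 0.47 (edgeR, unadjusted p of 0.0731 and 0.232).

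FABP4, the fatty acid binding protein of adipocytes and capillary endothelium, showed the largest log2 FC of the 57. It was 37.4 to 133 CPM in High MB pigs and 21.5 to 76.3 CPM in Low MB pigs. Its log2 FC was 1.00 (standard error 0.32), with an unadjusted p-value of 0.00769 and an adjusted p-value of 0.563 from edgeR and p = 0.0281 from the exact permutation test. The summed adipocyte markers were 287 to 516 CPM in High MB pigs and 296 to 472 CPM in Low MB pigs (exact permutation test, p = 0.318). PLIN4 gave 10686 to 33538 counts per library and ADIPOQ at most 5214, so this sum is mainly a measure of PLIN4. All 6 adipocyte markers tested had a log2 FC above 0, with 0.088 for PLIN4, 0.85 for ADIPOQ and 0.90 for CIDEC. The part of adipocytes in the level of FABP4 was not tested. DBI, the acyl-CoA binding protein, had a log2 FC of 0.37 (standard error 0.15, unadjusted p = 0.0275 from edgeR), and FABP5 one of 0.34 (standard error 0.18). GOT2, also known as the plasma membrane fatty acid binding protein, averaged 623 ± 89.6 and 597 ± 86.6 CPM in High and Low MB pigs (SD, n = 6 each), a log2 FC of 0.064. In the list of 5 other acyl-CoA synthetases tested, ACSL4, ACSBG1 and ACSS2 had a log2 FC between -0.047 and 0.0094, and 0 of the 5 had an unadjusted p-value under 0.05.

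Of 7 partners of CAV1 in caveolae, 1 had higher and 1 had lower counts in High MB pigs at an unadjusted p-value under 0.05. CAVIN3 averaged 24.3 ± 12.7 CPM in High MB pigs and 14.8 ± 4.90 CPM in Low MB pigs (SD, n = 6 each), a log2 FC of 0.72 (standard error 0.29, unadjusted p = 0.0245 from edgeR). The ranges of CAVIN3 overlapped, at 17.06 to 49.97 CPM in High MB pigs and 7.99 to 22.09 CPM in Low MB pigs. The exact permutation test gave p = 0.0455 for CAVIN3. The part of its highest High MB pig in this difference was not tested. CAVIN4, the cavin of muscle fibres, was lower in the High MB group, at 77.6 to 108 CPM against 106 to 142 CPM, so that the groups overlapped slightly, with a log2 FC of -0.30 (standard error 0.11, adjusted p = 0.563 from edgeR) and p = 0.00433 from the exact permutation test. CAVIN1 and PACSIN3 had a log2 FC of 0.026 and -0.10. Among 12 transcription regulators and growth factor receptors tied to uptake, TCF15, a partner of MEOX2 in the capillary endothelium of heart and muscle, averaged 5.00 ± 1.29 and 3.27 ± 1.09 CPM in High and Low MB pigs (SD, n = 6 each), a log2 FC of 0.61 (standard error 0.24, unadjusted p = 0.0222 from edgeR). PPARGC1A, RXRA and FLT1 had a log2 FC of -0.10, -0.086 and 0.10. Of 13 genes of the next steps in the fibre, mitochondrial entry and the lipid droplet, 0 had an unadjusted p-value under 0.05, with a log2 FC of 0.072 for CPT1B, 0.086 for PNPLA2 and 0.20 for PLIN2.

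**Figure D4:**
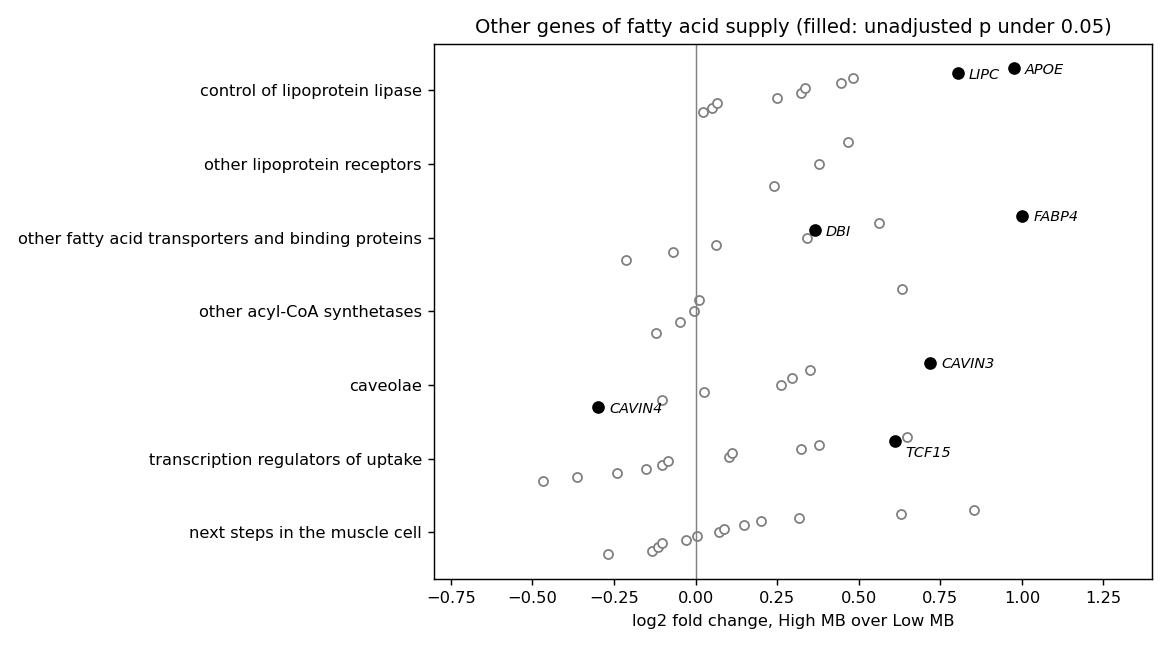
log2 fold change (horizontal axis, High MB over Low MB) of the 57 other genes of fatty acid supply tested, in 7 lists, with 1 point per gene spread vertically within its list. Filled points with a symbol mark the 7 genes with an unadjusted p-value under 0.05, of which CAVIN4 is the only one left of 0, and FABP4, at 1.00, lies farthest right.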

How the data were processed

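For each of 12 pigs the authors deposited raw, unnormalized counts per gene, made with htseq-count from paired-end reads that Trim Galore had trimmed and HISAT2 had placed on Sscrofa11.1; versions, annotation release and strand setting are not given in the sources used here. The lines of htseq-count that name no gene, between 56.0% and 57.2% of the counts in all lines, stayed out of library sizes. Of the reads given to a gene, to none or to several, 50.9% to 52.0% had no gene. The deposited counts per transcript were not used here, since no table paired transcripts with genes, so the planned test of members' transcripts was not run.

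The pigs were grouped by title. The members and lists were chosen with earlier results of these data known. Counts were fitted with edgeR 4.0.16 (TMM, filterByExpr, estimateDisp, glmQLFit, glmQLFTest; no covariate) in R 4.3.3, the main test here, while the study used DESeq2. The alternatives included DESeq2 1.42.0 with its defaults. The edgeR and DESeq2 scripts were tested on simulated data. CPM used TMM factors, and log2 CPM a prior count of 2. Exact permutation tests were two-sided over 924 splits, with a smallest p of 0.00216. Permutation tests of correlations over 12 pigs drew 100000 resamples (Python 3.11.15, SciPy 1.17.1). Depth classes were split at the largest gap in log2 total counts. Symbols came from a table of Ensembl identifiers (14857 of 25880 genes paired), and positions, lengths and sequences from the RefSeq annotation, release 106, of Sscrofa11.1. Named were all members, the pathway genes with an unadjusted p under 0.05 or among the 3 highest in mean CPM of their list, and the 3 genes most like each member with an unadjusted p under 0.05 and LPL. TIE1, ERG, ADIPOQ, CIDEC and PLIN4 are markers named after their values were seen. Pigs are separate animals, full siblings having been avoided by the study. No library repeated another (chi-square per degree of freedom between any pair at least 41.1). Of the named pathway genes and promoters, 1 each is not reported here.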

Additional observations from a re-analysis of the deposited data

Results flagged for a closer look

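Within a group of 6 pigs, 5 of 30 sets of values had a pig farther from the others than Dixon's critical value for the ratio of gap to range allows. Chance alone gives about 1 in 20 for independent, normally distributed values. The 30 sets were CPM values from the same pigs, so an excess over chance was not tested. GPIHBP1 was 13.9 CPM in High MB pig 5, with the other High MB pigs between 6.81 and 9.22 CPM, and 7.52 CPM in Low MB pig 6, with the other Low MB pigs between 4.89 and 5.83 CPM. SLC27A4 was 10.8 CPM in High MB pig 2, with the others of its group between 4.70 and 6.67 CPM. In High MB pig 2 the summed fibre markers were also apart, at 44024 CPM against 79452 to 92551 CPM in the other High MB pigs. The summed pericyte and smooth muscle markers were 749 CPM in High MB pig 6, with the others of its group between 188 and 344 CPM. The part of these pigs in the differences between the groups was not tested beyond leaving each out.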

How the results depend on the processing

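Under 25 alternatives the 9 members were called 0 times, and their log2 FC kept its direction in 220 of 225 pairs of member and alternative. The 5 reversals were SLC27A1 in the deep libraries alone (0.087) and SLC27A4 in the standard libraries alone (-0.10), without High MB pig 2 (-0.12), without Low MB pig 6 (-0.020; range -0.12 to 0.19 over each pig left out) and without both pigs that stood apart (-0.057, an alternative chosen after seeing the data). GPIHBP1 had an unadjusted p-value under 0.05 in 25 of 25 alternatives, with a log2 FC between 0.50 and 0.75 when each pig was left out and adjusted p-values between 0.112 and 0.999 from edgeR and DESeq2 over all alternatives. VLDLR did in 10 of 25, with a log2 FC between -0.26 and -0.18 when each pig was left out. LPL and CAV1 did in 2 of 25 each, among them without Low MB pig 5 (log2 FC 0.60 and 0.35). Over all genes, the count called was 0 with edgeR, 29 with DESeq2's defaults, 32 with DESeq2 on genes with at least 10 counts in all (chosen after seeing the data) and 1 in the deep libraries alone, and 0 whenever a single pig was left out; the cause was not tested. Other size factors moved the median log2 FC of all genes from -0.016 to at most 0.037. The individual numbers are not said to pair the pigs, and the correlation of same-numbered pigs' deviations from their group means was between -0.21 and 0.14, above 0.1 in 1 of the 6. With the replicate block, edgeR called 0 genes and 0 members, with 957 genes at an unadjusted p-value under 0.05 against 1132 without it, and of the members 1, GPIHBP1 (log2 FC 0.63). The ratio of GPIHBP1 to the endothelial markers, chosen after seeing the data, had an exact permutation p of 0.0714. For GPIHBP1 alone the exact permutation p was 0.00433, and the part of endothelial cells in its level was not tested. The lowest counts of a member in a library were 192 for SLC27A4 and 202 for GPIHBP1.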
